A study of Mus musculus with 12 samples.

Results

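RNA sequencing of heart ventricles from mice that overexpress MED13 in the heart (MED13cTg) was compared here with that of their wild-type (WT) littermates. The ventricle libraries are 6 of the 12 libraries in the series, 3 of each genotype, and the comparison covers 12589 genes, those whose mean over these 6 libraries reached 1 FPKM, of 23042 genes listed. FPKM is the number of fragments of a gene scaled to the length of its transcript and to the mapped fragments of the library. All mice were C57BL/6 males, given as 6 weeks old, kept on normal chow, fed ad libitum, and sampled in the late afternoon. The WT mice carried no transgene and the MED13cTg mice carried the cardiac MED13 transgene, whose promoter is not named in the sources used here. Genes of fatty acid oxidation, the Krebs cycle and the respiratory chain, 146 of the entries tested, stayed in the fit and are not described, with the exception of Ndufs1.

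Mediator is the multi-subunit complex that carries signals from DNA-bound transcription factors to RNA polymerase II. MED13 links the core complex to a detachable kinase module, which also holds MED12, cyclin C and CDK8 or CDK19, and which can repress or permit transcription of its target genes. In the heart, MED13 is known as a regulator of genes that respond to nuclear receptors and of whole-body energy balance.

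The ventricle label was checked against marker genes of the cell types that the samples could hold. The 8 ventricular myocyte markers summed to between 56185 and 85375 FPKM in the 6 libraries, and the 5 lung markers to between 0.622 and 1.76 FPKM, with Sftpa1 listed at 0 throughout. Atrial myocyte markers were not evenly spread. Myl7, the atrial light chain of myosin, was 322 FPKM in MED13cTg replicate 2 and between 20.9 and 63.5 FPKM in the other 5 libraries, and Bmp10 was listed above 0 in that library alone. Rank correlations between the 6 libraries ran from 0.944 to 0.969. WT replicate 1 was closest to MED13cTg replicates 2 and 1 (0.965 and 0.963), whereas MED13cTg replicate 3 was closest to WT replicates 2 and 3 (0.969 and 0.966). List medians are therefore also given within each of these sets of 3 libraries, which were formed from the data and are not groups of the study. In whole ventricles, fewer cells of a type and less RNA per cell cannot be told apart.

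Few genes passed the test. With limma on log2(FPKM + 1) and Benjamini-Hochberg adjustment, 3 genes rose (0.0238% of those tested) and 4 fell (0.0318%) at an adjusted p under 0.05, or 0.0556% in either direction. The genes that rose were Med13 and the short RNA genes Mir1894 and Snord15b, and those that fell were Bdh1, Ndufs1, Stbd1 and Lrrc4b. Counting these, 435 genes were higher in every MED13cTg library than in any WT library (3.46%) and 737 were lower in every one (5.85%), together 9.31%. Groups of 3 libraries can separate fully where genotypes do not differ, so these are not counts of changed genes. An unadjusted p under 0.05 was reached by 213 genes that were higher (1.69%) and by 382 that were lower (3.03%), so that 4.73% of all genes passed it in either direction. The median log2 difference over all genes was -0.01.

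**Figure D1:**
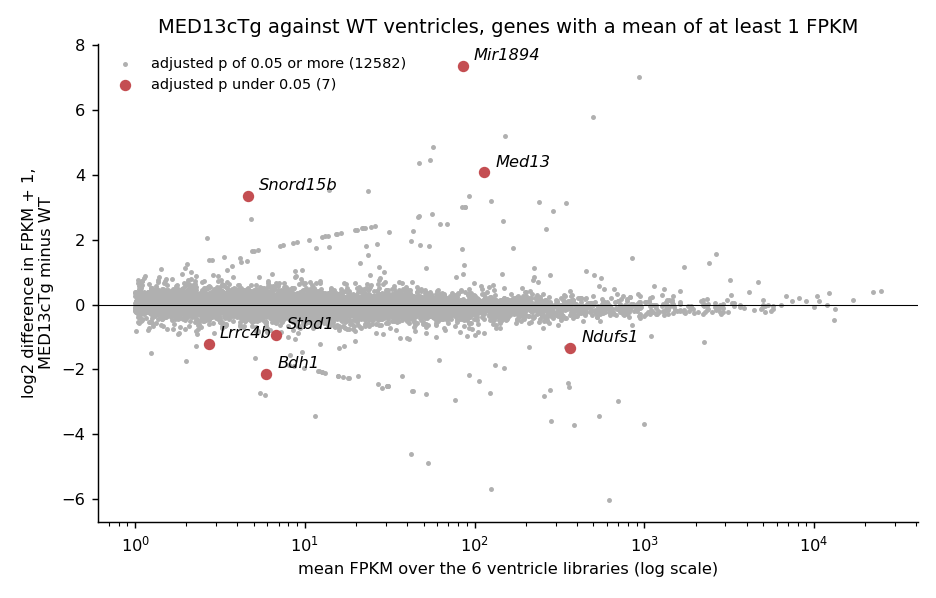
Each point is a gene in ventricles, with its mean FPKM over the 6 libraries on the horizontal log axis and the fitted log2 difference in FPKM + 1, MED13cTg minus WT, on the vertical axis. The 7 genes with an adjusted p under 0.05 are in red and named, and the others are in grey.

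Med13 itself was 13.1, 10.6 and 11.5 FPKM in WT against 263, 181 and 205 FPKM in MED13cTg ventricles. The mean rose 18.4-fold, from 11.7 ± 1.26 to 216 ± 42.5 FPKM (SD, n = 3 each), a log2 difference of 4.08 ± 0.17 (SE, limma adjusted p = 0.00028). These values do not separate reads of the transgene from those of the endogenous gene at chr11:86079216-86172461 (mm9). No other member of the kinase module passed the test. Cdk8, the kinase, was 17.4 ± 6.69 FPKM in WT and 17.5 ± 3.11 FPKM in MED13cTg ventricles, and its cyclin partner Ccnc was 9.23 ± 1.32 and 8.88 ± 1.89 FPKM. Cdk19, the alternative kinase, was 10.1 ± 1.35 and 8.88 ± 0.591 FPKM. None of the 26 entries of core Mediator subunits had an unadjusted p under 0.05, beside 4.73% of all genes. Their median log2 difference was 0.02, beside -0.01 over all genes.

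Bdh1 had the largest fall of the genes past the threshold. It encodes the mitochondrial dehydrogenase that interconverts the ketone bodies beta-hydroxybutyrate and acetoacetate, and lies at chr16:31422382-31458987 (mm9). It was 11.3, 8.34 and 11.2 FPKM in WT against 1.73, 1.42 and 1.51 FPKM in MED13cTg ventricles. The MED13cTg mean was 0.151 of the WT mean, a log2 difference of -2.13 ± 0.14 (limma adjusted p = 0.0055). Without MED13cTg replicate 1 or 2, the adjusted p was 0.063 or 0.065.

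Stbd1 encodes a protein that binds glycogen and anchors it to membranes, at chr5:93032076-93035605 (mm9). Its values were 9.35, 8.78 and 9.36 FPKM in WT against 4.37, 4.41 and 4.25 FPKM in MED13cTg ventricles, with very little spread in either genotype. The MED13cTg mean was 0.474 of the WT mean (log2 difference -0.93 ± 0.09, limma adjusted p = 0.043).

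Lrrc4b encodes a leucine-rich repeat adhesion protein known from synapses, at chr7:51697856-51718714 (mm9). It was 4.48, 3.85 and 4.25 FPKM in WT against 1.07, 1.42 and 1.23 FPKM in MED13cTg ventricles, or 0.296 of the WT mean (log2 difference -1.21 ± 0.12, limma adjusted p = 0.045). For Stbd1, Lrrc4b and Ndufs1, leaving out any 1 of the 6 libraries moved the adjusted p above 0.05, to between 0.086 and 0.29.

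**Figure D2:**
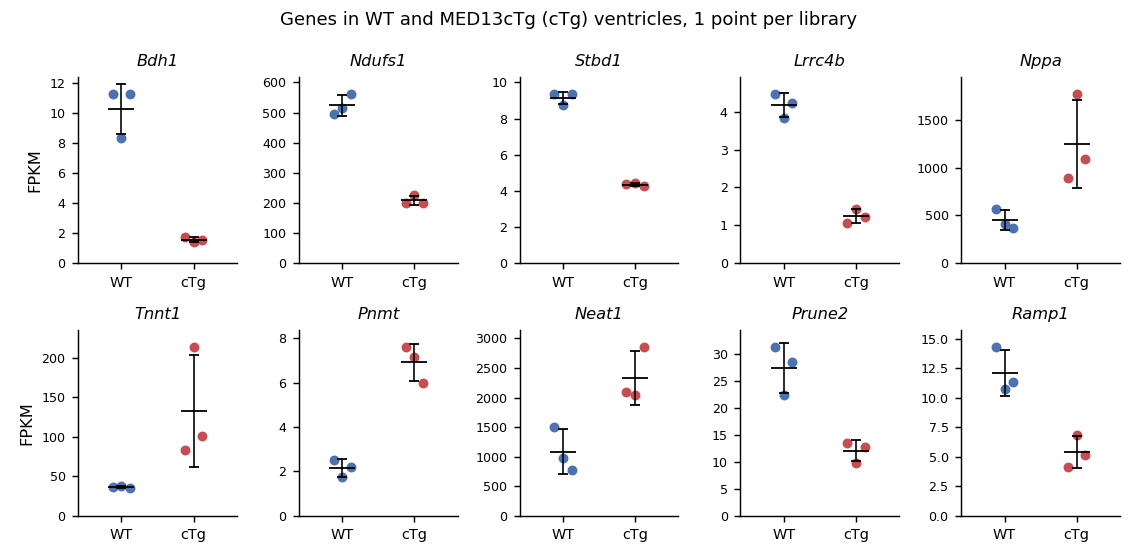
FPKM of 10 genes in WT and MED13cTg (cTg) ventricles, with 1 point per library, a horizontal bar at the mean of 3 libraries and an error bar of 1 SD. The genotypes do not overlap in any panel, and MED13cTg replicate 2 gives the highest point for Nppa (1773 FPKM) and Tnnt1 (214 FPKM).

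Ndufs1 encodes the largest core subunit of respiratory complex I, an iron-sulphur protein. It was 495, 516 and 562 FPKM in WT against 198, 227 and 201 FPKM in MED13cTg ventricles, so that every MED13cTg library was under every WT library. The MED13cTg mean was 0.397 of the WT mean, a log2 difference of -1.33 ± 0.13 (limma adjusted p = 0.043).

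The neighbours of Ndufs1 on chromosome 1 were lower as well. This stretch was chosen after its values were seen, so it is described and not tested as a region. From Ino80d to Fastkd2, chr1:63094374-63799959 (mm9), 6 entries passed the expression filter, Ndufs1 itself among them. In 5 of the 6, Ndufs1 and 4 neighbours, every MED13cTg library was under every WT library, against 5.85% of all genes. The exception was the short RNA gene Snora41, which was listed at 0 in 1 WT and 2 MED13cTg libraries. Ino80d, a subunit of the INO80 chromatin remodelling complex that lies directly before Ndufs1, was 6.71, 6.46 and 6.60 FPKM in WT against 4.19, 2.93 and 4.03 FPKM in MED13cTg ventricles. Gm11602, which shares the Ndufs1 locus and whose reads are therefore uncertain, was 3.97, 4.25 and 3.87 FPKM in WT against 1.34, 1.598 and 2.35 FPKM in MED13cTg ventricles. Eef1b2, a translation elongation factor that starts where Ndufs1 ends, was 173, 128 and 143 FPKM in WT against 91.2, 86.2 and 62.9 FPKM in MED13cTg ventricles. Fastkd2, a mitochondrial protein of RNA processing, lay 616 kb from the start of Ndufs1 and was 11.7, 11.6 and 12.99 FPKM in WT against 6.21, 5.47 and 6.61 FPKM.

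None of these 4 neighbours passed the adjusted threshold, and the nearest was Fastkd2 (log2 difference -0.88 ± 0.11, limma adjusted p = 0.12). Of the 5 entries of the stretch that lay under the expression filter, 3 were also lower without overlap, among them Adam23, at 0.972, 0.987 and 1.04 FPKM in WT against 0.647, 0.519 and 0.376 FPKM in MED13cTg ventricles. On the proximal side, Nrp2, a neuropilin receptor, was 13.1, 9.46 and 9.55 FPKM in WT against 9.11, 9.33 and 5.53 FPKM in MED13cTg ventricles, where the closest values of the genotypes nearly met. Pard3b, farther out, was 2.32, 3.24 and 3.61 FPKM against 1.79, 1.68 and 2.55 FPKM, with overlap. On the distal side, none of the 7 tested entries from Klf7 to Idh1 was without overlap, and their log2 differences lay between -0.10 and 0.10. Around the other genes that fell the picture differed in its counts. Of 24 other genes tested within 1 Mb of Bdh1, 0 were lower without overlap, of 16 around Stbd1 1 was, and of 62 around Lrrc4b 2 were. Within 1 Mb of Ndufs1 the count was 5 of 8. The cause of the lower values along this stretch was not tested.

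**Figure D3:**
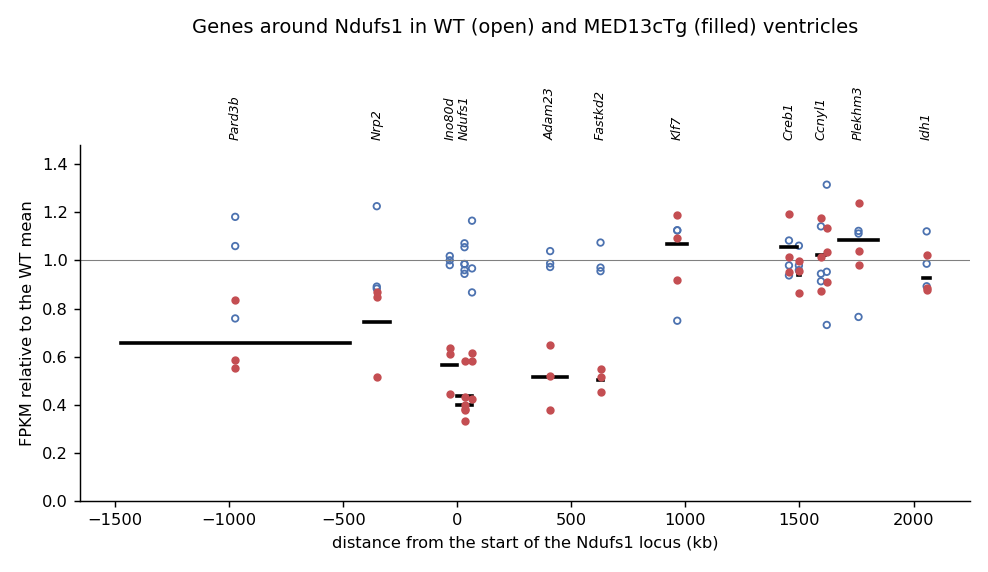
FPKM relative to the WT mean of each gene (vertical axis) against distance in kb from the start of the Ndufs1 locus (horizontal axis), for genes whose mean reached 0.6 FPKM, Snora41 left out. Open points are the 3 WT libraries, filled points the 3 MED13cTg libraries, and each black bar spans the locus at the MED13cTg mean. From Ino80d to Fastkd2 the MED13cTg means lie between 0.397 and 0.565 of the WT means, and from Klf7 onward between 0.929 and 1.09.

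In epididymal fat of mice of the same genotypes, tabulated separately, Eef1b2 was 325, 330 and 359 FPKM in WT against 62.5, 85.7 and 163 FPKM in MED13cTg libraries. Ino80d and Gm11602 were also lower there without overlap, while Ndufs1 and Fastkd2 overlapped. The share of all genes lower without overlap in fat is not given here, and such genes were not confined to this stretch. Rpl38, Rpl36a, Rps9, Rps21 and Rplp1, the most abundant cytosolic ribosomal protein genes of the ventricles, were lower in fat without overlap too. The fat libraries of MED13cTg mice differ widely from each other, with rank correlations down to 0.350, and their values are given as a description only.

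Mir1894 and Snord15b were listed at 0 in the 3 WT libraries, and no fold is given against a value of 0. Mir1894, a microRNA gene, was 156, 238 and 118 FPKM in MED13cTg ventricles (limma adjusted p = 9.5e-05). The mature sequences of its arms, from RefSeq for GRCm38.p6, show what is encoded there, with the seed (bases 2 to 8), which pairs with target transcripts, in capitals.
mmu-miR-1894-5p: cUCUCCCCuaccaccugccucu
mmu-miR-1894-3p: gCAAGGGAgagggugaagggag
Neither seed was shared with another of the 1679 mature microRNA names in the same table. In the deposited table the Mir1894 entry carries the locus of Ppp1r10, chr17:36053507-36069228 (mm9), and Ppp1r10 was 7.29, 9.004 and 8.81 FPKM in WT against 7.26, 7.48 and 7.02 FPKM in MED13cTg ventricles. Snord15b, a small nucleolar RNA hosted by the ribosomal protein gene Rps3, was 9.49, 9.14 and 9.07 FPKM in MED13cTg ventricles (limma adjusted p = 9.5e-05). Its sister Snord15a, in the same host, was listed at 0 in WT replicate 2 and MED13cTg replicate 3 and between 8.198 and 9.13 FPKM in the other 4 libraries. Of 173 short RNA genes tested, in 136 a library at 0 and a library of the same genotype at or above 1 FPKM occurred together, so that jumps between 0 and a positive value were common among them. Libraries of this kind are made for longer transcripts, and such values are uncertain.

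Of 21 ion channel entries, 18 had a log2 difference below 0, beside 53.3% of all genes, and the median was -0.25, beside -0.01. In 6 of them every MED13cTg library was under every WT library, beside 5.85% of all genes, and none was higher without overlap. Kcnk3, a background potassium channel, was 70.2, 70.2 and 73.8 FPKM in WT against 47.0, 54.3 and 53.9 FPKM in MED13cTg ventricles. The pacemaker channel Hcn2 was 15, 13.4 and 14.5 FPKM against 11.5, 7.08 and 8.26 FPKM.

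Hcn4, a second pacemaker channel with a low level in ventricles, was 1.41, 2.67 and 2.48 FPKM in WT against 0.712, 0.650 and 1.27 FPKM in MED13cTg ventricles. Kcne1, a subunit of a repolarizing potassium channel, was 7.43, 3.74 and 5.65 FPKM against 2.79, 3.45 and 2.80 FPKM. Of the repolarizing channels outside the naming rule with an unadjusted p under 0.05, Kcnh2 was lower without overlap (49.4 ± 3.69 against 37.3 ± 6.52 FPKM) and Kcnd3 overlapped (6.04 ± 0.969 against 4.29 ± 0.726 FPKM). Kcnip2, which modulates Kcnd3, was 98.3, 175 and 185 FPKM in WT against 92.3, 85.2 and 149 FPKM in MED13cTg ventricles, with overlap. None of these genes passed the adjusted test (lowest adjusted p = 0.90 for Kcnk3). The list median was -0.19 within WT replicate 1 and MED13cTg replicates 1 and 2, and -0.22 within the other 3 libraries.

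Genes of branched-chain amino acid breakdown, the mitochondrial pathway that oxidizes leucine, isoleucine and valine, were all on the lower side. Each of the 20 entries tested had a log2 difference below 0, and the median was -0.29. Of these, 6 had an unadjusted p under 0.05, beside 3.03% of all genes on the lower side, and 4 were lower without overlap, beside 5.85%, none of them past the adjusted threshold. Bckdha and Bckdhb encode the subunits of the enzyme that commits the branched-chain keto acids to oxidation. Bckdha was 210, 214 and 235 FPKM in WT against 139, 154 and 170 FPKM in MED13cTg ventricles, whereas Bckdhb was 83.5, 63.7 and 76.0 FPKM against 47.2, 67.6 and 49.2 FPKM and overlapped. Ppm1k, the phosphatase that activates this enzyme, was 26.3, 31.3 and 28.8 FPKM against 19.01, 20.4 and 22.8 FPKM. Farther down the pathway, Hibadh was 276 ± 17.6 FPKM in WT and 221 ± 14.8 FPKM in MED13cTg ventricles, and Hsd17b10 was 217 ± 8.74 and 176 ± 13.8 FPKM, both without overlap. Aldh6a1 (112 ± 26.7 and 74.1 ± 17.6 FPKM), outside the naming rule, and Ivd (209 ± 46.7 and 148 ± 28.2 FPKM) overlapped. Within the sets of 3 similar libraries the median was -0.24 and -0.37.

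**Figure D4:**
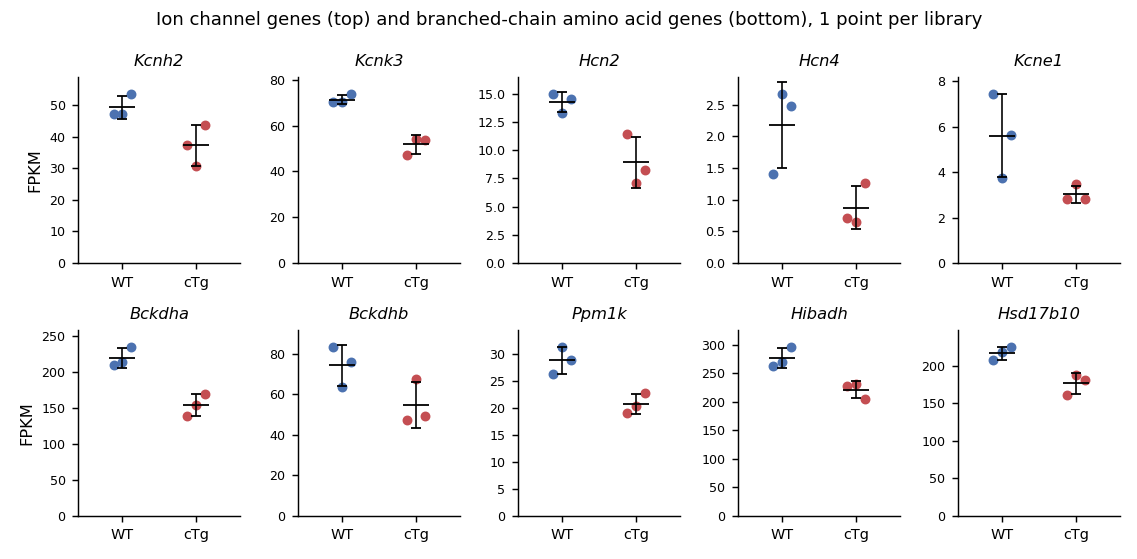
FPKM of 5 ion channel genes (top) and 5 genes of branched-chain amino acid breakdown (bottom) in WT and MED13cTg (cTg) ventricles, with 1 point per library, a horizontal bar at the mean and an error bar of 1 SD. The genotypes overlap in Bckdhb and in no other panel.

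Among other fuel genes the differences were spread unevenly. In glycogen metabolism, 19 of 23 entries were below 0 (median -0.10). In this list 3 were lower without overlap, beside 5.85% of all genes: Stbd1, Ppp1r3c and Ugp2. Ppp1r3c, which targets a phosphatase to glycogen, was 61.2, 69.2 and 70.1 FPKM in WT against 36.7, 26.3 and 47.2 FPKM in MED13cTg ventricles (limma adjusted p = 0.90). Ugp2, which makes the glucose donor of glycogen synthesis, was 105 ± 7.40 and 90.7 ± 6.79 FPKM. In glucose uptake and glycolysis, 15 of 21 entries were below 0 (median -0.12) and 4 were lower without overlap, beside 5.85% of all genes. Slc2a1, the basal glucose transporter GLUT1, was 7.03, 9.53 and 6.51 FPKM in WT against 4.33, 3.28 and 5.22 FPKM in MED13cTg ventricles. Slc2a4, the insulin-responsive transporter GLUT4, was 182 and 184 FPKM on average. Pfkp, the platelet form of phosphofructokinase, was 26.2, 26.7 and 29.3 FPKM against 15.01, 19.97 and 18.9 FPKM. Of 8 ketone body entries, Bdh1 alone had an unadjusted p under 0.05, beside 4.73% of all genes. None of the 18 lipid uptake and storage entries did, and 15 of them were below 0 (median -0.17). Their most abundant member, Fabp3, the heart fatty acid-binding protein, was 8888, 8932 and 10329 FPKM in WT against 10615, 12676 and 10531 FPKM in MED13cTg ventricles. It was the 1 entry of this list that was higher without overlap, beside 3.46% of all genes, and 0 were lower without overlap.

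Sarcomere genes did not share a direction. Of 23 entries, 12 were below 0, and the median was -0.02. Without overlap, 3 were higher, beside 3.46% of all genes, and 3 were lower, beside 5.85%. Myl2, the ventricular light chain, was 21238, 19184 and 22654 FPKM in WT against 22362, 36273 and 27135 FPKM in MED13cTg ventricles, Tnnt2 overlapped as well, and the entry shared by Myh6 and Myh7 was 5045 ± 307.5 against 4742 ± 1432 FPKM. Tcap, a small protein of the Z-disc, was 4094, 3023 and 3548 FPKM in WT against 4997, 7237 and 5135 FPKM in MED13cTg ventricles.

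Of 11 cardiac stress entries 7 were below 0 (median -0.10). Without overlap, only Nppa was higher, beside 3.46% of all genes, and 1 entry was lower, beside 5.85%. Nppa encodes atrial natriuretic peptide, which returns in stressed ventricles, and was 565, 408 and 368 FPKM in WT against 892, 1773 and 1088 FPKM in MED13cTg ventricles (log2 difference 1.45 ± 0.29, limma adjusted p = 0.75). Without MED13cTg replicate 2, the library with the high atrial markers, its log2 difference was 1.16 (limma adjusted p = 1). Nppb (143 and 186 FPKM on average), Ankrd1 (550 and 767 FPKM) and Acta1 (260 and 206 FPKM), which mark the same response, overlapped.

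Calcium handling genes had a median of -0.10. Ryr2, the calcium release channel, was 466, 473 and 365 FPKM in WT against 330, 354 and 284 FPKM in MED13cTg ventricles. Slc8a1, the sodium-calcium exchanger, was 12.8, 20.4 and 22.9 FPKM against 11.0, 9.08 and 13.4 FPKM, with overlap. Casq1, the skeletal calsequestrin, was on the higher side at 50.8, 50.0 and 45.9 FPKM against 55.5, 71.3 and 57.2 FPKM. Atp2a2, the calcium pump SERCA2, was 6230 FPKM in WT and 7471 FPKM in MED13cTg ventricles on average, with overlap.

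In signalling, 13 of 15 adrenergic entries were below 0 (median -0.06). Adcy5, a major cardiac adenylyl cyclase, was 16.6, 21.3 and 21.4 FPKM in WT against 13.5, 9.49 and 13.3 FPKM in MED13cTg ventricles, and Adra1b, an alpha-adrenergic receptor, was 12.6 ± 2.77 and 8.98 ± 0.628 FPKM with overlap. Of the insulin signalling entries 15 of 20 were below 0 (median -0.10). Grb14, an adaptor that inhibits the insulin receptor, was 109, 102 and 106 FPKM against 73.3, 97.2 and 71.7 FPKM. Pik3r1, a regulatory subunit of phosphoinositide 3-kinase, was 69.0, 93.1 and 85.9 FPKM against 50.2, 29.4 and 71.3 FPKM, with overlap.

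Cardiac transcription factors had 15 of 17 entries below 0 and a median of -0.25. Without overlap, 3 were lower, beside 5.85% of all genes, and 1 was higher, beside 3.46%. Nkx2-5, a core factor of the heart muscle programme, was 53.6, 52.6 and 46.2 FPKM in WT against 43.9, 34.8 and 42.0 FPKM in MED13cTg ventricles. Irx3, a factor of the conduction system, was 20.9, 23.7 and 26.7 FPKM against 15.8, 15.9 and 18.9 FPKM. The median of this list was -0.01 within WT replicate 1 and MED13cTg replicates 1 and 2 and -0.19 within the other 3 libraries. None of the 25 nuclear receptors tested (median -0.08) had an unadjusted p under 0.05, beside 4.73% of all genes. Of 11 thyroid hormone responsive entries, Hcn2 alone did. Of 17 clock entries, Npas2 (1.64 ± 0.445 and 0.796 ± 0.211 FPKM) and Hlf (17.9 ± 1.29 and 14.6 ± 0.177 FPKM) were lower without overlap, beside 5.85% of all genes. Per3 (38.8 ± 2.60 and 44.3 ± 2.46 FPKM) was higher without overlap, beside 3.46%, and the median of the clock entries was -0.0092. Ppargc1a, the coactivator of mitochondrial biogenesis, was 63.3, 55.5 and 44.6 FPKM in WT against 33.0, 30.6 and 47.5 FPKM in MED13cTg ventricles, with overlap.

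Of 16 entries of autophagy and atrophy, 15 were below 0, beside 53.3% of all genes (median -0.20), and 3 were lower without overlap, beside 5.85%, among them Gabarapl1, a protein of the autophagosome, at 116, 111 and 84.8 FPKM in WT against 79.2, 76.6 and 83.9 FPKM in MED13cTg ventricles. Of 36 proteasome subunits 29 were below 0 (median -0.10), and of 74 mitochondrial ribosomal proteins 54 were (median -0.08), whereas 49 of 78 cytosolic ribosomal proteins were above 0 (median 0.04). Of 14 heat shock entries 11 were below 0 (median -0.07). Among the others, Hspb6 was 2370 ± 1424 and 3975 ± 2267 FPKM, with overlap. Hspb7, a small heat shock protein of heart muscle, was the 1 entry higher without overlap, beside 3.46% of all genes, and 0 were lower. It was 817, 885 and 1061 FPKM in WT against 1236, 1355 and 1510 FPKM in MED13cTg ventricles. The antioxidant enzymes Nqo1 (36.1 ± 4.52 and 46.5 ± 3.91 FPKM) and Hmox1 (8.204 ± 0.890 and 11.0 ± 1.749 FPKM) were also higher without overlap, while Prdx3 (299 ± 22.5 and 252 ± 7.67 FPKM) and Txn2 (252 ± 26.9 and 223 ± 7.91 FPKM), of the mitochondrial peroxide defence, were lower without overlap. Of the 15 uncoupling and antioxidant entries 8 were below 0 (median -0.08), and 26.7% stood without overlap in either direction, beside 9.31% of all genes. No unfolded protein response or immediate early gene had an unadjusted p under 0.05, beside 4.73% of all genes.

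Some lists lay above the background, without members that separated the genotypes. Of 19 interferon response genes 18 were above 0 (median 0.22), of 20 cell cycle entries 18 were (median 0.23), and of 26 collagen and matrix genes 20 were (median 0.09). In none of these lists did a gene have an unadjusted p under 0.05, beside 4.73% of all genes, or stand without overlap, beside 9.31%. Isg15, an interferon-induced ubiquitin-like protein, was 25.0 and 35.5 FPKM on average and Bst2, an antiviral membrane protein, 82.3 and 103 FPKM. Relative to the WT mean, the interferon list median was 0.31 in WT replicate 1, 0.45 and 0.42 in MED13cTg replicates 1 and 2, and -0.18 in MED13cTg replicate 3. Within the sets of similar libraries the medians were 0.12 and -0.04 for interferon genes and 0.06 and -0.06 for cell cycle genes. All 9 macrophage markers were above 0, and they summed to 636, 442 and 416 FPKM in WT against 695, 659 and 491 FPKM in MED13cTg ventricles. Their part in the interferon values was not tested.

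**Figure D5:**
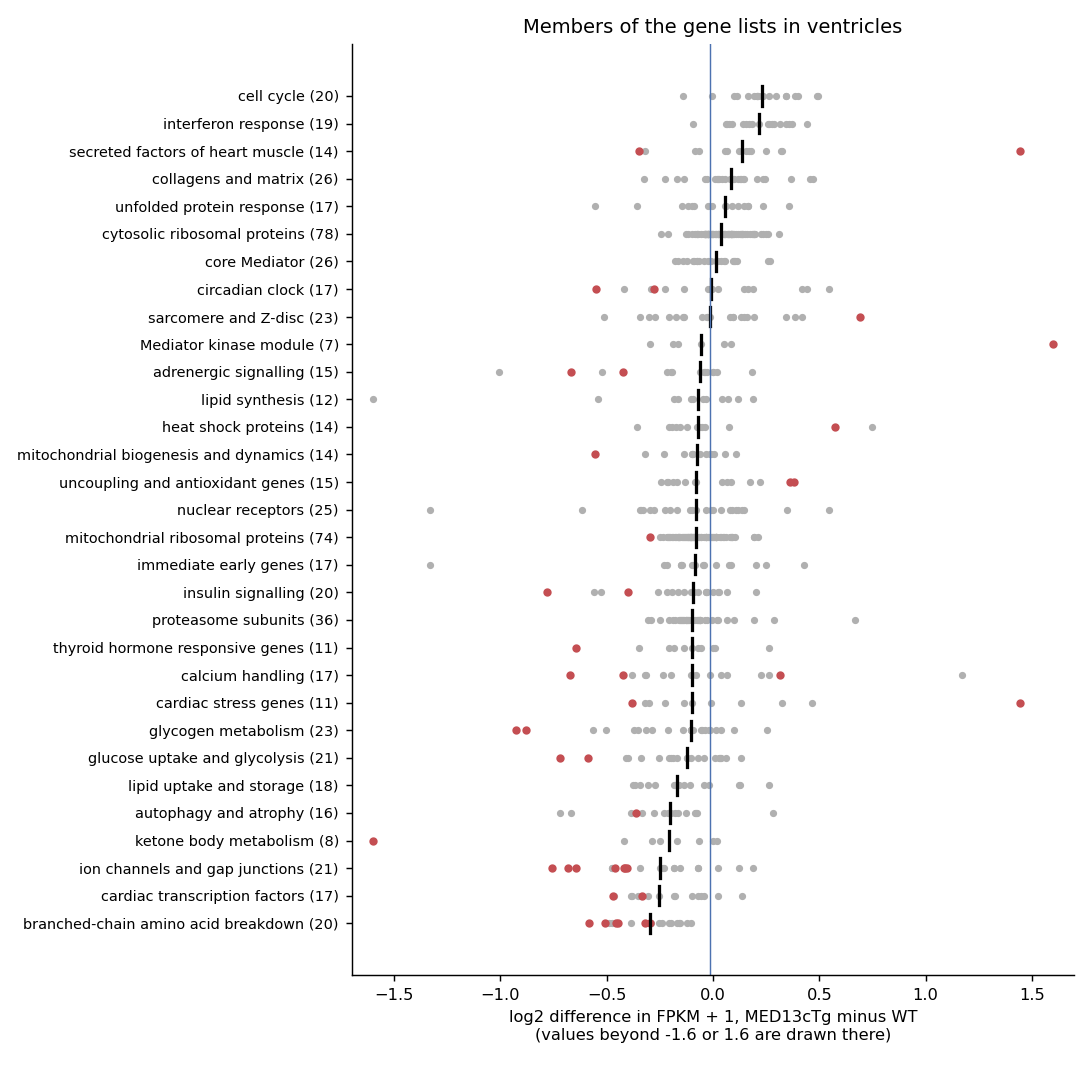
Log2 difference in FPKM + 1, MED13cTg minus WT (horizontal axis), for the tested members of 31 gene lists (rows, with the number of entries). Points in red have an unadjusted p under 0.05, each black bar is the list median and the blue line is the median of all genes (-0.01). The lowest median is that of branched-chain amino acid breakdown (-0.29) and the highest that of the cell cycle (0.23).

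Apart from Med13 and Nppa, the genes highest above WT without overlap included Tnnt1, Tnni2 and Mybpc2, isoforms of skeletal muscle. Tnnt1, the slow skeletal troponin T, was 36.7, 37.5 and 35.7 FPKM in WT against 83.6, 214 and 101 FPKM in MED13cTg ventricles (limma adjusted p = 0.61). Without MED13cTg replicate 2 its log2 difference was 1.30 (limma adjusted p = 0.14). Tnni2, the fast skeletal troponin I, was 17.9, 18.0 and 22.7 FPKM against 33.2, 47.4 and 28.04 FPKM, and Mybpc2, the fast skeletal myosin-binding protein C, was 22.4, 10.8 and 17.5 FPKM against 29.8, 33.4 and 30.2 FPKM. The skeletal muscle markers as a list did not share this direction. Of the 6 that were tested, 3 were above and 3 below 0 (median 0.0094). Tnni2 was higher and Actn3, the fast skeletal alpha-actinin, lower without overlap (2.29 ± 0.217 and 1.89 ± 0.186 FPKM), beside 9.31% of all genes in either direction. The skeletal myosins Myh1 and Myh2 stayed at or under 0.241 FPKM in every library.

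Pnmt came nearest to the threshold from above (limma adjusted p = 0.061). It encodes the enzyme that converts noradrenaline to adrenaline, and was 2.52, 1.74 and 2.22 FPKM in WT against 7.62, 7.17 and 5.98 FPKM in MED13cTg ventricles, 3.21 times the WT mean. Its locus begins 1.68 kb after the end of the Tcap locus, and whether reads from Tcap contribute was not tested. Neat1, the RNA scaffold of nuclear paraspeckles, was 1507, 977 and 769 FPKM in WT against 2094, 2048 and 2858 FPKM in MED13cTg ventricles. H19, an imprinted noncoding RNA, was 23.7, 16.4 and 15.5 FPKM against 29.3, 62.5 and 28.7 FPKM. Tuba4a, an alpha-tubulin, was 258, 115 and 224 FPKM against 463, 328 and 286 FPKM. The others were Gm12295, Gm16386, Tlcd2, Plac8 and Lst1, a gene of leukocytes, whose means were between 1.99 and 3.15 times those of WT.

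Among the genes farthest below WT, beyond those already given, Prune2 was 31.3, 22.4 and 28.4 FPKM in WT against 13.5, 9.79 and 12.8 FPKM in MED13cTg ventricles (limma adjusted p = 0.31). Ramp1, the partner of the receptor for the vasodilator peptide CGRP, was 14.3, 10.7 and 11.3 FPKM against 4.15, 6.83 and 5.14 FPKM. Rhd, of the Rh ammonium transporter family, was 2.84, 2.53 and 2.57 FPKM against 0.921, 0.832 and 1.06 FPKM. Lrat, which esterifies retinol for storage, was 3.42, 2.05 and 2.47 FPKM against 1.39, 0.953 and 0.570 FPKM. Wif1, a secreted Wnt inhibitor, was 2.90, 2.67 and 4.42 FPKM against 0.683, 1.49 and 1.78 FPKM. Rtn4r, the receptor of Nogo, and the transcript Gm19277 were 0.235 and 0.290 of their WT means.

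A further 3 of these genes were lower by an amount that varied among the MED13cTg mice. Fkbp5, a co-chaperone of the glucocorticoid receptor, was 52.3, 56.6 and 54.7 FPKM in WT against 22.4, 15.9 and 45.3 FPKM in MED13cTg ventricles. Cdkn1a, the cell cycle inhibitor p21, was 38.5, 42.0 and 31.0 FPKM against 20.4, 12.4 and 27.96 FPKM, and Fam107a was 26.2, 24.3 and 21.6 FPKM against 8.33, 5.33 and 16.8 FPKM. In all 3, MED13cTg replicate 3 lay closest to the WT libraries and MED13cTg replicate 2 farthest from them. Of 14 entries of secreted factors, 10 were above 0 and 4 below (median 0.14). Without overlap, Nppa was higher, beside 3.46% of all genes, and Il15 was lower, beside 5.85%. Il15, a cytokine made by muscle, was 45.4, 45.7 and 53.0 FPKM in WT against 39.7, 40.6 and 32.6 FPKM in MED13cTg ventricles. Ctgf, a matrix-associated factor of the cardiac stress list, was 71.8 ± 8.46 and 55.0 ± 7.84 FPKM with overlap.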

How the data were processed

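RNA was extracted by the authors with Trizol from ventricles and epididymal fat, and libraries were made with the TruSeq RNA kit. Per the labels and the study's methods, reads were aligned with TopHat to mm9 and the authors estimated FPKM per gene with Cufflinks at default settings, in 1 deposited table per tissue. Versions are not given in the sources used here. Columns of the authors' means and fold changes were not used. Nothing says whether the libraries were prepared together. FPKM gives no absolute depth. By the commonest ratio among values below 0.15 FPKM, the fragments relative to WT replicate 1 were 0.914 to 1.02, and genes listed above 0 numbered 16791 to 17232 per library. Of the entries tested, 218 join several symbols and their values are uncertain.

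Groups came from the labels, and the ventricle comparison used limma 3.58.1 in R 4.3.3 (lmFit and eBayes with trend) on log2(FPKM + 1), which understates changes of low genes, with Benjamini-Hochberg adjustment over 12589 genes. P-values measure the spread between 3 mice per genotype. Gene lists are described by counts and medians, with no test. The members and lists were chosen with earlier results of these data known. Named were the genes past the threshold, Med13, Bdh1, Ndufs1, Nppa and Stbd1, the 15 genes highest above and 15 farthest below WT without overlap at an unadjusted p under 0.05 (short RNA genes and entries of several symbols aside; 1 of the 15 above WT belongs to the respiratory chain and is not described), and per list up to 5 members of lowest p and up to 5 of highest level. Genes near Ndufs1, Txn2, Actn3 and others said to lie outside this rule were chosen after their values were seen. Files were handled in Python 3.11.15 with pandas 2.3.3 and drawn with matplotlib 3.10.9. The fit was tested on simulated data. Alternatives were a pseudocount of 0.1, quantile normalization, median-of-ratios scaling, no filter, a mean of 5 FPKM as filter, no trend, robust moderation, the replicate block, the library sets as covariate, and each library left out. An ion channel gene of the lists is counted but not reported by name here.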

Additional observations from a re-analysis of the deposited data

Results flagged for a closer look

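In 2 named genes the ventricles and the fat of MED13cTg mice lay on opposite sides of WT in every library, and this difference between tissues was not tested. Mrps2, a mitochondrial ribosomal protein, was 0.808 of the WT mean in ventricles, at 21.9, 22.4 and 24.5 FPKM in WT against 18.0, 20.3 and 17.2 FPKM in MED13cTg libraries, and 1.30 times the WT mean in fat, at 12.2, 13.9 and 12.4 FPKM against 15.9, 19.6 and 14.8 FPKM. Snord15b was listed at 0 in WT ventricles with a mean of 9.23 FPKM in MED13cTg ventricles, and was 0.312 of the WT mean in fat, at 19.5, 21.2 and 19.8 FPKM against 7.12, 6.43 and 5.34 FPKM.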

How the results depend on the processing

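The number of genes that rose stayed at 2 to 4 under the alternatives and at 3 to 6 with 1 library left out (5, 6 and 5 without WT replicate 2, WT replicate 3 and MED13cTg replicate 3). The number that fell was 1 with no expression filter, 1 with a mean of at least 5 FPKM, 1 with the replicate block, and 0 to 4 with 1 library left out (1, 0 and 1 without MED13cTg replicates 1, 2 and 3). Med13 and Mir1894 passed the threshold under all 15 alternatives, Snord15b under all 14 that kept it, Bdh1 under 13, Ndufs1 under 6, Stbd1 under 5 and Lrrc4b under 4 of 14. Pnmt passed under 3, and Gm19277 with the library sets as covariate. With the replicate block the limma adjusted p was 0.33 for Ndufs1 and 0.31 for Stbd1 and Lrrc4b, and 3 genes rose and 1 fell. Same-numbered libraries deviated from their group means with correlations of 0.086, -0.19 and 0.14. Pairs with unlike numbers ran from -0.27 to 0.19, so these values cannot tell whether same-numbered libraries share more than a number.

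Directions turned only in named genes far from the threshold. With the library sets as covariate the log2 difference was -0.053 for Nppb and -0.14 for Cdk8. With 1 library left out it ran from -0.31 to 0.14 for the entry of Myh6 and Myh7, from -0.11 to 0.25 for Tnni3, from -0.21 to 0.025 for Ccnc, from -0.16 to 0.33 for Cdk8 and from -0.046 to 0.079 for Slc2a4.

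List medians moved by more than 1 SD in 11 of 31 lists. A mean of at least 5 FPKM gave -0.0024 for the kinase module and -0.10 for nuclear receptors, which were -0.042 without a filter, -0.066 with median-of-ratios scaling and -0.063 with the covariate. Quantile normalization gave 0.034 for sarcomere genes, -0.054 for glycolysis, 0.0017 for uncoupling and antioxidant genes and -0.033 for nuclear receptors, and the covariate gave -0.074 for the unfolded protein response. With 1 library left out the medians ran from -0.16 to 0.025 (kinase module), -0.053 to 0.10 (sarcomere), -0.43 to -0.21 (ion channels), -0.14 to -0.026 (nuclear receptors), -0.26 to -0.067 (ketone bodies), -0.23 to -0.066 (glycolysis), -0.21 to -0.069 (lipid uptake), -0.11 to -0.027 (lipid synthesis), -0.11 to 0.020 (uncoupling and antioxidant genes), -0.19 to -0.031 (proteasome) and -0.072 to 0.17 (unfolded protein response). The cause of these shifts was not tested. Depth is unknown, and 3 mice per genotype limit the differences that can pass adjustment over all genes.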

Other observations

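Genes of antigen presentation on MHC class II, a list put together after the values were seen, were on the higher side in MED13cTg ventricles. All 8 entries tested had a log2 difference above 0, with a median of 0.52, and 3 were higher without overlap, beside 3.46% of all genes. H2-Aa, an MHC class II chain, was 33.0, 24.1 and 24.1 FPKM in WT against 45.2, 45.8 and 41.7 FPKM in MED13cTg ventricles (limma adjusted p = 0.76). The entry of Cd74, the invariant chain, which it shares with Mir5107, was 69.4, 53.7 and 50.4 FPKM against 139, 113 and 88.0 FPKM. H2-DMa, which loads peptides, was 4.49, 4.56 and 2.62 FPKM against 6.44, 7.73 and 5.07 FPKM. The list median was 0.35 within WT replicate 1 and MED13cTg replicates 1 and 2 and 0.41 within the other 3 libraries. Of the 9 macrophage markers, Csf1r was higher without overlap (17.8 ± 1.98 and 22.1 ± 1.04 FPKM), beside 3.46% of all genes. The part of such cells in these values was not tested.

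Genes known to respond to glucocorticoids, also listed after the values were seen, had 13 of 17 entries below 0 and a median of -0.26. Relative to the WT mean the list median was -0.12, -0.53 and 0.07 in MED13cTg replicates 1, 2 and 3, so that it lay on the lower side in MED13cTg replicates 1 and 2 and not in replicate 3. Tsc22d3, a glucocorticoid-induced leucine zipper protein, was 197, 167 and 169 FPKM in WT against 135, 111 and 165 FPKM in MED13cTg ventricles, without overlap (limma adjusted p = 0.97). Per1, whose entry is shared with Vamp2, was 91.7 ± 15.7 and 102 ± 9.14 FPKM, and Mt2, a metallothionein, was 469 ± 23.9 and 691 ± 277 FPKM.

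The entry shared by Scd2, a fatty acid desaturase, and Mir5114 was 8.77, 10.3 and 1626 FPKM in WT against 7.17, 8.34 and 8.69 FPKM in MED13cTg ventricles, so that its mean difference rests on WT replicate 3. Of the 2 entries shared by the alpha-globin genes Hba-a1 and Hba-a2, the first was 424, 185 and 299 FPKM in WT against 98.9, 151 and 104 FPKM in MED13cTg ventricles, and the second was 303, 538 and 198 FPKM against 290, 461 and 63.1 FPKM. Reads of these near-identical genes can be split between the entries, and their values are uncertain. Other short RNA genes stood apart in level without passing the adjusted test. Snora3, in the host gene Rpl27a, was 25.4, 21.3 and 21.1 FPKM in WT against 121, 58.5 and 77.4 FPKM in MED13cTg ventricles, and Mir3100, in the locus of Dmpk, was 1473, 1540 and 1017 FPKM against 3455, 3291 and 5132 FPKM.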
